A study of Mus musculus with 36 samples.

Results

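The 45 genes described here encode regulators and parts of the mitotic cell cycle, and were followed through liver RNA of mice with experimental cholestasis. They were given by name, matched by gene symbol to the Ensembl identifiers of the count table, and all 45 were found among its 29546 genes. By the stage at which their products act, 4 belong to G1/S entry (Ccnd1, Ccne1, Ccne2 and E2f1) and 11 to S phase (the replication genes Mcm2 to Mcm7 and Pcna, and the nucleotide supply genes Rrm1, Rrm2, Tyms and Tk1). The other 30 act in G2/M. Most hepatocytes and bile duct cells of a healthy adult liver are quiescent in G0, and enter the cycle after injury or loss of tissue. D cyclins with their kinases phosphorylate RB and release E2F factors, which turn on cyclin E and the replication genes. In late S phase and G2 the MuvB complex with MYBL2 and then FOXM1 turns on the mitotic genes, and in resting cells MuvB joins RB-like proteins in the DREAM complex, which represses both groups.

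The libraries were 3′ end RNA libraries with unique molecular identifiers (QuantSeq) from whole liver of C57BL/6 mice, in 9 groups of 4, 36 in all. Ligation of the common bile duct, which blocks bile outflow, was labelled BDL7 and BDL28 by its day, with sham-operated mice (SHAM) as the control. Cyclosporin A, an immunosuppressant known to impair bile secretion, was gavaged at 15 mg/kg in olive oil (CsA7 and CsA28), with olive oil alone (VEHICLE) as the control. A diet with 3,5-diethoxycarbonyl-1,4-dihydrocollidine (DDC, at 0.1% by weight), which gives porphyrin plugs and a ductular reaction in mouse liver, was fed in DDC7 and DDC28, with a control diet (CTLD) as the control. The labels call day 7 acute and day 28 chronic cholestasis, and give no age, sex or pooling of animals and no day for the controls, so that each control group served both days. Replicates are named here by the number in each library's description. Nothing in the labels says that the 4 libraries of a group came from separate animals, and p-values measure only the spread between these libraries. Depth ran from 2081093 to 3770267 reads per library.

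Promoter sequences come first because they show what many of these genes share apart from their levels. A RefSeq table for GRCm38.p6 gave a window of 300 bases, from 250 before to 50 after the start of transcription, for 36 of the 45 genes. Ccnd1, Ccne2, Mcm4, Ccna2, Foxm1, Aurkb, Kif20a, Tpx2 and Stmn1 had no entry. Only the first listed window of each gene was searched. Searched on both strands were the cell cycle homology region (CHR, spelled TTTGAA or TTCGAA), where MuvB is known to bind, the CCAAT box (CCAAT), where NF-Y binds, and the E2F element (TTCCCGC or else TTGGCGC or else TTCGCGC or else TTGCCGC). A CHR was found in 20 of the 24 G2/M windows (83.3%), in 2 of the 10 S phase windows (20.0%) and in 19.4% of all 27025 windows. CCAAT boxes were in 21 of the 24 G2/M windows (87.5%) and in 8 of the 10 S phase windows (80.0%), against 37.9% of all. A CHR and a CCAAT box together were in 19 of the 24 G2/M windows (79.2%), against 7.7% of all. The E2F element was in 6 of the 10 S phase windows and 4 of the 24 G2/M windows (16.7%), against 9.69% of all. The 2 G1/S windows, those of Ccne1 and E2f1, held 0 matches to any of the 3 motifs. Counting only matches before the start, 8 of the 24 G2/M windows held a CHR (33.3%), against 17.4% of all. A CHR that began from 30 bases before to fewer than 40 bases after the start was in 18 of the 24 G2/M windows, against 3.87% of all windows. That interval was not planned, and matches of these same genes lie close to its edges. The count therefore describes where the matches lie and is no test. A match describes the letters of the window, and where an E2F element abuts a CCAAT box the same letters can serve both, which occurred 3 times.

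Stretches of 130 bases, from 110 before to 20 after the start, are printed 5′ to 3′ on the gene's strand for 4 G2/M genes with a CHR near the start and for 2 S phase genes, of which Mcm6 rose and Tk1 did not. Capitals mark CHR, CCAAT and E2F matches, read in either direction.
Cdk1: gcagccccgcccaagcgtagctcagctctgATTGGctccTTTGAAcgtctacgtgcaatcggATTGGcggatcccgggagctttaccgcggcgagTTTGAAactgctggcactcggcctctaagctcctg
Ccnb2: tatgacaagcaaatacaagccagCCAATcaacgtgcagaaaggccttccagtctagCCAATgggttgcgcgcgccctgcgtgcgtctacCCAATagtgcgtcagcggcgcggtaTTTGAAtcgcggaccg
Hmmr: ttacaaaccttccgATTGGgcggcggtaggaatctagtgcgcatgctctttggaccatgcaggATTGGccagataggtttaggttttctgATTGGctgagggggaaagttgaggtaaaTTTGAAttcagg
Prc1: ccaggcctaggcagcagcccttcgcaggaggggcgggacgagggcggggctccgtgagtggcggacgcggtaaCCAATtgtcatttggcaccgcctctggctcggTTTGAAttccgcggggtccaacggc
Mcm6: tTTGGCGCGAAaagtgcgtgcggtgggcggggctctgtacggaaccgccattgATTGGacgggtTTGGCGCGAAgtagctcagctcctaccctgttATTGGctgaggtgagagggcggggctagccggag
Tk1: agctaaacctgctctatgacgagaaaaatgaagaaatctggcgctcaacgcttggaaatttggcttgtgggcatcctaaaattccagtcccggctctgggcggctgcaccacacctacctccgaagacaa
In GRCm38.p6 they lie at chr10:69352893-69353022, minus strand (Cdk1), chr9:70421535-70421664, minus strand (Ccnb2), chr11:40733418-40733547, minus strand (Hmmr), chr7:80294341-80294470, plus strand (Prc1), chr1:128359686-128359815, minus strand (Mcm6) and chr11:117825995-117826124, minus strand (Tk1). Cdk1 has 2 CHRs here, at 71 and 15 bases before the start, each after a CCAAT box in reverse (ATTGG). Ccnb2 has 3 CCAAT boxes in a row before a CHR that begins 4 bases after the start, and Hmmr has 3 ATTGG boxes before a CHR 8 bases after it. Mcm6 has E2F matches at 109 and 46 bases before the start, each overlapped by a match on the other strand, with 2 ATTGG boxes and no CHR. The stretch of Tk1 holds none of the 3 motifs. The windows of Pcna and Mcm2, which rose, held no E2F match either, and any bearing of the motifs on the levels was not tested.

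**Figure D1:**
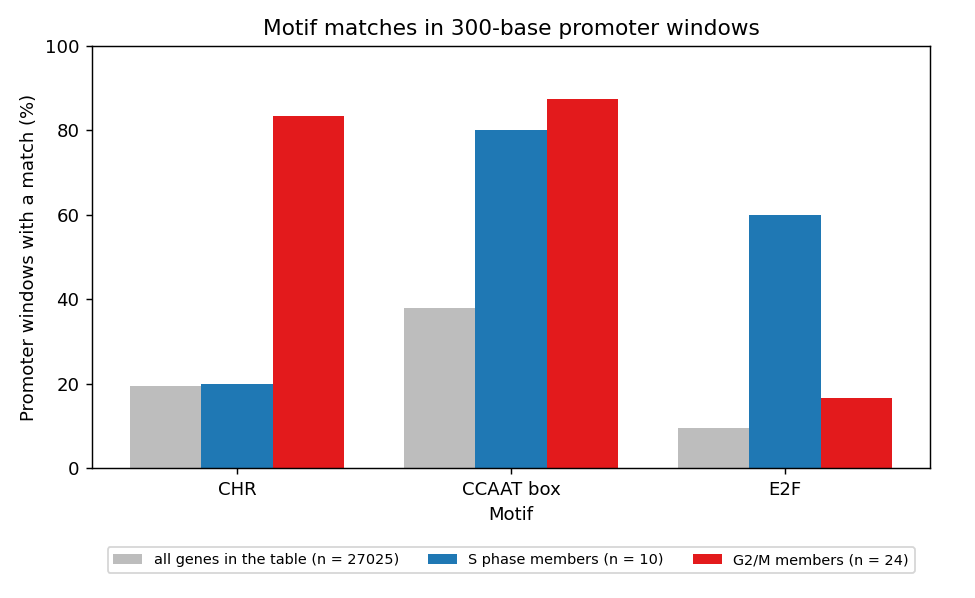
Share of promoter windows of 300 bases (y axis, percent) with at least 1 match to the CHR, the CCAAT box or the E2F element (x axis), for all 27025 genes of the table (grey), 10 S phase members (blue) and 24 G2/M members (red). The CHR bar of the G2/M members stands at 83.3%, against 20.0% for S phase members and 19.4% for all genes. The 2 G1/S windows, with 0 matches, are not drawn.

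Most of the cell cycle genes rose at day 7 of both ligation and DDC feeding. Values are the deposited normalized counts, and differences are on the log2(value + 1) scale with their standard errors, from limma fitted to all 36 libraries. The threshold for a call was an adjusted p of 0.05 (Benjamini-Hochberg) over 12596 genes, those that reached 10 in 4 or more libraries. Of the 45 members, 44 passed that filter and Bub1 did not. Because a low gene passes only through the groups where it is high, the counts below describe the members and are no test of the list. In BDL7, 40 of the 44 members were higher than in SHAM and 0 were lower, where 20.2% of all genes tested were called higher and 18.5% lower. The median difference of the members was 2.50, against 0.01 over all genes. In DDC7, 38 were higher than in CTLD and 1 (Tk1) was lower (background 24.7% higher and 22.1% lower), with a median of 3.10 against 0.04. All 29 tested G2/M genes rose in both. At day 28 of ligation 3 were higher and 2 lower (background 24.1% and 22.7%), with a median of 0.20 against 0.03. That median was -0.39 without BDL28 replicate 1, with 1 higher and 5 lower, and -0.12 under quantile normalization, and 1 was higher without SHAM replicate 2 or 4. At day 28 of DDC 14 were higher and 1 lower (background 27.9% and 24.7%), with a median of 0.97 against 0.04. The DDC28 count was 9 without replicate 1 and 8 without replicate 2, the libraries with the highest G2/M levels, and Birc5, Bub1b, Ccnb1, Ccnb2 and Cenpa were called in neither. With cyclosporin 0 of 44 were called in limma at day 7 (background 1.88% higher and 2.14% lower) or day 28 (background 0.00794% and 0.0159%).

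**Figure D2:**
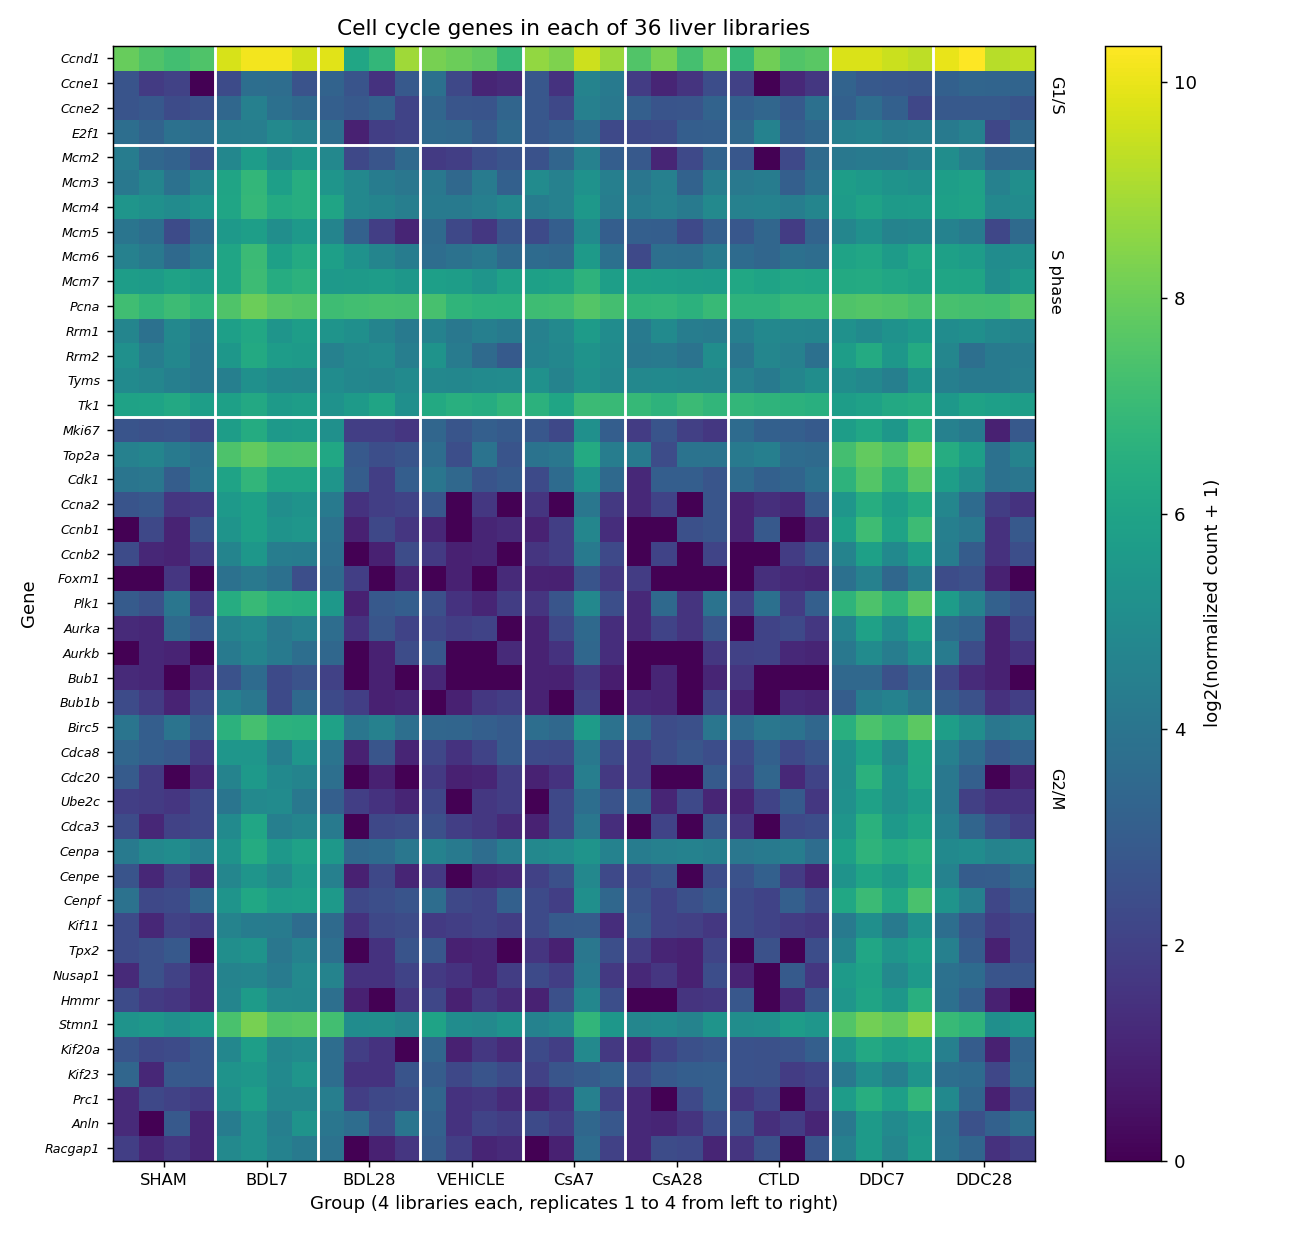
Each of the 45 genes (rows, by stage) in each of the 36 libraries (columns, by group, replicates 1 to 4 from left to right), as log2(normalized count + 1) from dark (0) to yellow (highest). The G2/M rows are bright across BDL7 and DDC7, and within BDL28 and CsA7 the bright G2/M columns are those of replicate 1 and replicate 3.

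Single libraries stand apart in several groups and bear on the results that follow. The normalized counts of the 30 G2/M genes summed to 781, 117, 139 and 151 in the 4 BDL28 libraries, so that replicate 1 lay above the others, which were below every SHAM library (215, 189, 203 and 169.6). BDL28 replicate 1 was the highest of its 4 libraries for 40 of the 45 genes, including 30 of 30 in G2/M. A refit without it takes away the highest value of most of these same genes. Calls and p-values of such refits show how far a result rests on this library and are no test. In CsA7 the same sums were 136, 168, 749 and 199, and replicate 3 was the highest for 43 of 45 genes and 29 of 30 in G2/M. DDC28 held a step between its libraries (817, 491, 171 and 247), with replicates 1 and 2 both above replicates 3 and 4 in 37 of 45 genes. DDC7 had sums of 1470.2, 2674, 1677 and 2922, and replicates 2 and 4 were both above 1 and 3 in 27 of the 30 G2/M genes but in 0 of the 4 G1/S genes. In BDL7 the sums were 1298, 1989, 1234 and 1328, replicate 2 being the highest. CTLD stood at 161, 194, 175 and 176, VEHICLE at 242, 113, 121 and 133 and CsA28 at 126, 133, 127 and 209. A sum is carried by its most abundant genes (Stmn1, Top2a and Birc5 in G2/M), and the sums were not compared between groups by a test. The ranks of libraries were not counted over all genes, so they describe the members and cannot show a trait particular to them.

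**Figure D3:**
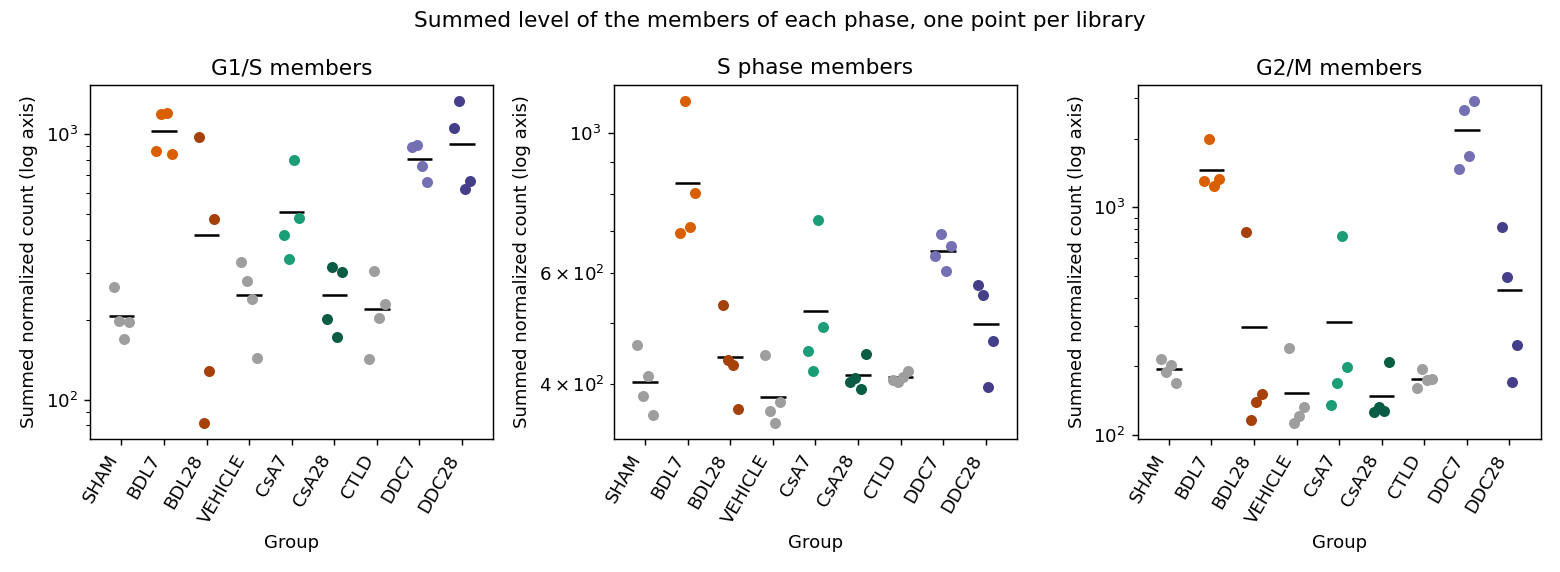
Summed normalized counts (y axes, logarithmic) of the G1/S, S phase and G2/M members by group (x axes), 1 point per library, with a black line at the mean of 4. The G2/M sums of BDL7 (1234 to 1989) and DDC7 (1470.2 to 2922) lie above every control library, while those of BDL28 and CsA7 hold 1 point each (781 and 749) far above the other 3.

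Markers of cell types differed between groups, and stood apart in some but not all of these libraries. The hepatocyte markers (8, of which 0 were at 0 in any group) summed to 57021 to 63579.8 in SHAM, 32540.4 to 41066 in BDL7, 36459 to 44163 in BDL28, 68135 to 85570.4 in CTLD, 37228 to 47288 in DDC7 and 36746 to 45624 in DDC28. Cholangiocyte markers (8, with Krt7 at 0 in SHAM and none at 0 in the treated ligation and DDC groups) summed to 305 to 496 in SHAM, 1866 to 3092 in BDL7, 314 to 419 in CTLD, 1278 to 1761 in DDC7 and 1277 to 2427 in DDC28. In BDL28 they reached 2902 in replicate 1 and 1011 to 1311 in the other 3. Macrophage and monocyte markers (9) summed to 419.8 to 528 in SHAM and 1399 to 1987 in BDL7, and to 441 to 532 in CTLD and 1185 to 1762 in DDC7. Those of Kupffer cells summed to 509 to 755 in SHAM and 1735 to 2562 in BDL7, and to 459 to 549.9 in CTLD and 1260.1 to 2689.6 in DDC7. Both macrophage lists were higher in every day 7 library of ligation and DDC than in their controls. Stellate cell and fibroblast markers summed to 920.2 to 1111 in SHAM and 1844 to 2826 in BDL7, and to 1167 to 1397 in CTLD and 1768 to 2218 in DDC7. Neutrophil markers, with Ly6g at 0 in all 4 groups, summed to 27.3 to 45.4 in SHAM and 191 to 332 in BDL7, and to 7.83 to 25.1 in CTLD and 107 to 204 in DDC7. Sinusoidal endothelium markers summed to 1003 to 1109.5 in SHAM and 761 to 957 in BDL7, and to 977 to 1145 in CTLD and 828 to 939.8 in DDC7. In DDC28, where the G2/M sums were lower than in DDC7, macrophage and monocyte markers summed to 1831 to 2633 and those of Kupffer cells to 1350 to 2090. Stellate markers there summed to 1914 to 3261, neutrophil markers to 356 to 384 and sinusoidal endothelium markers to 634 to 709. The stellate cell and fibroblast markers were at 3239 in BDL28 replicate 1 against 881 to 1116 (8 of 8 highest there), and the macrophage and monocyte markers at 2290.3 against 714 to 1229 (9 of 9). In CsA7 replicate 3 the macrophage and monocyte markers were at 667 against 387 to 478 (9 of 9 highest there), the stellate markers at 1731 against 1136 to 1307 and the hepatocyte markers at 60094 against 62039 to 70289.7. The cholangiocyte markers of CsA7 replicate 3 were the lowest of its group (196.2 against 196.5 to 293). BDL7 replicate 2, the highest of its group in G2/M, was the lowest for cholangiocyte (1866), macrophage and monocyte (1399), stellate (1844) and neutrophil (191) markers. Its Kupffer cell markers were at 2292 against 1735 to 2562. The part of these cell types in the results was not tested. Whole liver RNA holds all cells together, so that more cells in cycle and more RNA per cycling cell cannot be told apart.

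Cyclin D1, the G1 cyclin that answers growth signals, rose at day 7 of ligation and at both days of DDC. Across ligation, Ccnd1 was 242, 181, 148 and 179 in SHAM, 832, 1132, 1151 and 801 in BDL7 and 945, 68.9, 115 and 464 in BDL28. All BDL7 libraries lay above SHAM, while BDL28 ran from well below SHAM (replicates 2 and 3) to the BDL7 range (replicate 1). The difference in BDL7 was 2.38 ± 0.50 (adjusted p = 0.000378), and that in BDL28 was 0.40 ± 0.50 (adjusted p = 0.541). Across DDC, Ccnd1 was 122, 272, 187 and 205 in CTLD, 853, 864, 724 and 630.3 in DDC7 and 1019, 1293, 603 and 642 in DDC28. No DDC library overlapped CTLD, and the differences were 2.01 ± 0.50 at day 7 (adjusted p = 0.00164) and 2.16 ± 0.50 at day 28 (adjusted p = 0.00066). With cyclosporin Ccnd1 was 296, 260.1, 225 and 122 in VEHICLE, 399.8, 324, 740.4 and 443 in CsA7 and 186, 306, 157 and 281 in CsA28. Each CsA7 library lay above VEHICLE, but the difference of 1.08 ± 0.50 was not called (adjusted p = 0.248).

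Cyclins E1 and E2 activate CDK2 at the start of S phase, and Ccne1 was called with DDC and Ccne2 with ligation. Ccne1 was 5.50, 2.48, 3.16 and 0 in SHAM, 4.18, 12.2, 11.96 and 5.34 in BDL7 and 8.85, 5.51, 1.86 and 6.43 in BDL28, and 3.04, 0, 1.305 and 2.18 in CTLD, 8.71, 6.39, 5.98 and 5.67 in DDC7 and 7.89, 9.26, 9.04 and 9.19 in DDC28. It rose with DDC (1.70 ± 0.61, adjusted p = 0.021 at day 7, and 2.07 ± 0.61, adjusted p = 0.00452 at day 28), and in BDL7 the difference of 1.48 ± 0.61 was not called (adjusted p = 0.0528). Under cyclosporin Ccne1 was 13.2, 3.70, 1.09 and 1.34 in VEHICLE, 6.07, 1.88, 23.8 and 18.3 in CsA7 and 2.59, 1.07, 1.90 and 4.46 in CsA28. Ccne2 was 5.50, 6.21, 4.21 and 4.74 in SHAM, 10.03, 21.4, 13.0 and 10.7 in BDL7 and 7.87, 6.43, 8.36 and 3.22 in BDL28, and 8.11, 9.71, 6.52 and 13.1 in CTLD, 7.99, 11.99, 7.97 and 3.54 in DDC7 and 6.45, 6.41, 6.33 and 5.51 in DDC28. It rose in BDL7 (1.21 ± 0.38, adjusted p = 0.0114), and its values in DDC7 (-0.28) and DDC28 (-0.49) were not called, although the DDC28 libraries all lay below CTLD. The difference between the BDL7 and DDC7 effects on Ccne2 was 1.49 ± 0.54 (adjusted p = 0.0816). Under cyclosporin Ccne2 was 9.57, 5.55, 5.47 and 9.39 in VEHICLE, 6.07, 3.76, 21.5 and 16.8 in CsA7 and 7.77, 5.37, 5.71 and 8.93 in CsA28, with replicates 3 and 4 of CsA7 high for both cyclins. No difference of either cyclin was called there.

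E2f1, the activating E2F that is itself induced at G1/S, fell at day 28 of ligation. It was 12.4, 8.69, 13.7 and 11.9 in SHAM, 20.1, 20.3, 27.9 and 22.9 in BDL7 and 11.8, 0.919, 2.79 and 3.22 in BDL28. Every BDL7 library lay above SHAM, but the rise of 0.92 ± 0.43 was not called (adjusted p = 0.0874). In BDL28, replicates 2 to 4 were below SHAM and replicate 1 within its range, for a fall of 1.49 ± 0.43 on the log2 scale (adjusted p = 0.00427). Without BDL28 replicate 1 the E2f1 difference was -1.999 (adjusted p = 0.000115). With DDC, E2f1 was 10.1, 22.7, 7.83 and 9.82 in CTLD, 21.1, 23.2, 18.9 and 20.54 in DDC7 and 17.9, 22.1, 3.62 and 10.1 in DDC28, and neither 0.80 at day 7 nor -0.04 at day 28 was called. With cyclosporin, E2f1 was 10.8, 10.2, 6.57 and 10.7 in VEHICLE, 6.07, 7.52, 11.5 and 3.81 in CsA7 and 3.88, 4.29, 7.61 and 7.81 in CsA28, with overlapping groups.

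Of the 7 replication genes, all rose in BDL7, 6 in DDC7 (not Mcm7) and 5 in DDC28 (Mcm2, Mcm3, Mcm4, Mcm6 and Pcna). Pcna, the sliding clamp of DNA polymerase, was 142, 110.5, 136 and 106 in SHAM, 179, 259, 198 and 182 in BDL7 and 139.7, 146, 156 and 151 in BDL28, and 101, 102, 121 and 119 in CTLD, 180.1, 191, 180.4 and 156 in DDC7 and 158, 150.3, 148 and 183 in DDC28. Neither BDL7 nor either DDC group overlapped its control. Pcna rose by 0.72 ± 0.14 in BDL7 (adjusted p = 6.18e-05), 0.67 ± 0.14 in DDC7 (adjusted p = 0.000125) and 0.52 ± 0.14 in DDC28 (adjusted p = 0.00149). In BDL28 its difference was 0.27 ± 0.14 (adjusted p = 0.0977). Under cyclosporin Pcna was 162, 108, 98.5 and 95.2 in VEHICLE, 141, 142, 189 and 152 in CsA7 and 109, 109, 99.9 and 125 in CsA28. VEHICLE replicate 1 reached the CsA7 range, and the CsA7 difference was 0.45 ± 0.14 (adjusted p = 0.0526). Between the 2 cyclosporin days Pcna fell by 0.49 ± 0.14 on the log2 scale (adjusted p = 0.0462), the only member called in that comparison (background 1.37% higher and 1.07% lower). The call was lost without CsA7 replicate 3 or 4 or without CsA28 replicate 1, 2 or 3, and also with quantile normalization, without the filter on low values and with only the groups compared.

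Mcm2 to Mcm7 form the hexameric helicase that opens replication origins, and 6 of 6 rose in BDL7. Mcm7 was 53.7, 49.6, 61.0 and 51.0 in SHAM, 66.0, 134, 82.8 and 99.2 in BDL7 and 47.2, 48.7, 52.0 and 43.9 in BDL28, and 71.0, 63.1, 71.8 and 67.6 in CTLD, 77.0, 78.3, 68.8 and 61.6 in DDC7 and 66.7, 65.5, 33.5 and 47.8 in DDC28. Its BDL7 libraries lay above SHAM (0.77 ± 0.19, adjusted p = 0.00121), whereas DDC7 overlapped CTLD (0.06 ± 0.19, adjusted p = 0.8287). Under cyclosporin Mcm7 was 56.2, 52.8, 40.5 and 59.0 in VEHICLE, 57.7, 61.1, 100.4 and 54.8 in CsA7 and 57.0, 55.8, 53.3 and 51.3 in CsA28, high in CsA7 replicate 3. The Mcm6 values were 66.8, 131, 57.8 and 77.8 in BDL7 and 56.1, 37.7, 25.1 and 19.3 in BDL28, against 10.5 to 22.0 in SHAM. With DDC they were 62.4, 68.7, 49.8 and 68.0 in DDC7 and 57.4, 52.0, 31.7 and 34.9 in DDC28, against 9.71 to 13.0 in CTLD. Mcm6 was called in all 4 comparisons, at 2.23 in BDL7, 0.94 in BDL28 (adjusted p = 0.0392), 2.34 in DDC7 and 1.81 in DDC28 (adjusted p = 0.000138). Without BDL28 replicate 1 its BDL28 difference was 0.68 (adjusted p = 0.162).

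Mcm2 was 26.7, 51.9, 31.9 and 43.5 in BDL7 and 27.5, 3.68, 5.57 and 10.7 in BDL28, against 4.74 to 19.3 in SHAM. With DDC, Mcm2 was 16.7, 17.6, 16.9 and 21.2 in DDC7 and 33.0, 20.7, 9.95 and 11.02 in DDC28, against 0 to 10.9 in CTLD. Mcm3 was 64.3, 114, 55.8 and 84.7 in BDL7 and 41.3, 27.6, 19.5 and 16.1 in BDL28, against 13.7 to 24.8 in SHAM. With DDC, Mcm3 was 52.3, 45.5, 38.9 and 35.4 in DDC7 and 54.5, 59.1, 22.6 and 33.1 in DDC28, against 7.83 to 19.4 in CTLD. In BDL7 and DDC7 the libraries of Mcm2 and Mcm3 lay above their controls. Mcm4 was 66.0, 118, 78.8 and 87.0 in BDL7 and 64.9, 27.6, 24.1 and 20.4 in BDL28, against 30.5 to 41.3 in SHAM. With DDC, Mcm4 was 49.4, 60.7, 48.8 and 50.3 in DDC7 and 58.1, 62.0, 27.1 and 30.3 in DDC28, against 19.6 to 25.1 in CTLD. Mcm5 was 47.6, 54.9, 33.9 and 45.8 in BDL7 and 24.6, 8.27, 2.79 and 1.07 in BDL28, against 4.21 to 15.1 in SHAM. With DDC, Mcm5 was 26.1, 35.96, 23.9 and 24.8 in DDC7 and 22.9, 18.5, 3.62 and 11.02 in DDC28, against 2.61 to 9.71 in CTLD. Mcm2, Mcm3, Mcm4 and Mcm5 were each called in BDL7 (1.87, 1.95, 1.21 and 2.10) and in DDC7 (2.08, 1.57, 1.19 and 1.98). In DDC28 Mcm2, Mcm3 and Mcm4 were called (1.97, 1.46 and 0.87), and Mcm5 was not (0.82 ± 0.58, adjusted p = 0.239). In BDL28 the 4 genes stood at -0.06, 0.34, -0.24 and -0.71, and 0 were called.

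Of the nucleotide supply genes, both ribonucleotide reductase subunits rose in BDL7, thymidylate synthase was called in no comparison, and thymidine kinase 1 fell. Rrm2 was 43.4, 76.3, 51.8 and 48.1 in BDL7 and 22.6, 27.6, 30.6 and 20.4 in BDL28, against 16.6 to 35.8 in SHAM. With DDC, Rrm2 was 52.3, 78.3, 43.8 and 77.9 in DDC7 and 25.8, 12.8, 18.1 and 19.3 in DDC28, against 13.1 to 25.9 in CTLD. The small subunit Rrm2 rose by 1.15 ± 0.33 in BDL7 (adjusted p = 0.00594) and 1.68 ± 0.33 in DDC7 (adjusted p = 9.67e-05), and at day 28 it stood at 0.08 and 0.00. Rrm1 was 56.8, 73.2, 40.9 and 53.4 in BDL7 and 40.3, 34.9, 24.1 and 18.2 in BDL28, against 13.7 to 27.4 in SHAM. With DDC, Rrm1 was 36.3, 29.6, 37.9 and 46.7 in DDC7 and 31.5, 34.2, 27.1 and 24.8 in DDC28, against 21.3 to 27.5 in CTLD. The large subunit Rrm1 rose in BDL7 (1.401 ± 0.24, adjusted p = 1.71e-05), and its DDC7 difference of 0.56 ± 0.24 was not called (adjusted p = 0.0558). Tyms was 20.9, 35.6, 28.9 and 27.5 in BDL7 and 31.5, 26.6, 25.1 and 30.01 in BDL28, against 16.6 to 30.3 in SHAM. With DDC, Tyms was 32.7, 27.2, 20.9 and 38.2 in DDC7 and 20.8, 17.8, 18.1 and 20.2 in DDC28, against 17.8 to 32.7 in CTLD. The groups of Tyms overlapped at day 7, and its 6 differences from control lay between -0.30 and 0.29.

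Tk1, the salvage kinase for thymidine, was 60.5, 63.3, 73.6 and 54.5 in SHAM, 57.6, 75.3, 48.9 and 53.4 in BDL7 and 37.4, 48.7, 64.1 and 34.3 in BDL28. With DDC, Tk1 was 113, 105, 97.9 and 91.7 in CTLD, 53.7, 59.9, 74.7 and 82.2 in DDC7 and 44.4, 61.2, 56.1 and 52.4 in DDC28. Every DDC library lay below every CTLD library. Tk1 fell by 0.60 ± 0.18 in DDC7 (adjusted p = 0.00777), by 0.92 ± 0.18 in DDC28 (adjusted p = 7.78e-05) and by 0.48 ± 0.18 in BDL28 (adjusted p = 0.0328), and in BDL7 its difference was -0.11 ± 0.18 (adjusted p = 0.687). Under cyclosporin Tk1 was 77.8, 91.6, 84.3 and 109 in VEHICLE, 100.2, 65.8, 129.5 and 126 in CsA7 and 122, 101, 132 and 110.5 in CsA28. The DDC7 call of Tk1 was lost with libraries scaled to their total counts or all 12 control libraries as the control. Its BDL28 call was lost with total-count scaling, in edgeR and in DESeq2.

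Mitotic genes gave the largest differences. Top2a, the topoisomerase that untangles sister chromatids, was 22.0, 24.8, 17.9 and 13.0 in SHAM, 175, 228, 169.5 and 176 in BDL7 and 69.9, 6.43, 4.64 and 5.36 in BDL28. In BDL7 each library lay above SHAM (3.23 ± 0.63, adjusted p = 0.000147), and in BDL28 replicate 1 lay above SHAM and replicates 2 to 4 below it (-0.77 ± 0.63, adjusted p = 0.33). Without BDL28 replicate 1, Top2a was lower than in SHAM (-1.63, adjusted p = 0.0118). With DDC, Top2a was 18.2, 21.0, 11.7 and 10.9 in CTLD, 152, 231, 168 and 290.4 in DDC7 and 83.2, 54.1, 13.6 and 23.9 in DDC28, a rise of 3.68 ± 0.63 at day 7 (adjusted p = 2.17e-05) and a difference of 1.18 ± 0.63 at day 28 (adjusted p = 0.117). Under cyclosporin Top2a was 11.96, 4.63, 14.2 and 5.36 in VEHICLE, 14.2, 16.0, 79.7 and 19.8 in CsA7 and 18.1, 4.29, 14.3 and 14.5 in CsA28. Mki67, which coats mitotic chromosomes and marks cycling cells in tissue sections, was 5.50, 4.96, 5.26 and 3.56 in SHAM, 52.6, 80.4, 45.9 and 49.6 in BDL7 and 35.4, 2.76, 2.79 and 2.14 in BDL28. With DDC, Mki67 was 11.2, 8.09, 7.83 and 6.55 in CTLD, 53.7, 67.9, 43.8 and 96.3 in DDC7 and 22.2, 17.8, 0.904 and 6.43 in DDC28, and with cyclosporin 9.57, 5.55, 7.66 and 6.70 in VEHICLE, 6.07, 3.76, 35.3 and 7.62 in CsA7 and 2.59, 5.37, 2.85 and 2.23 in CsA28. Mki67 rose by 3.30 ± 0.63 in BDL7 (adjusted p = 9.06e-05) and 2.78 ± 0.63 in DDC7 (adjusted p = 0.000525). Its log2 differences at day 28 (0.14 and -0.06) averaged libraries on either side of control. Replicate 1 of BDL28 lay above SHAM and replicates 2 to 4 below it. Replicates 1 and 2 of DDC28 lay above CTLD and replicates 3 and 4 below it.

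The kinase that drives mitosis and its cyclins rose together at day 7. Cdk1 was 15.1, 16.1, 7.36 and 14.2 in SHAM, 62.7, 111, 64.8 and 64.1 in BDL7 and 41.3, 7.35, 2.79 and 7.503 in BDL28. With DDC, Cdk1 was 11.2, 8.09, 9.13 and 13.1 in CTLD, 102, 187, 97.7 and 199.7 in DDC7 and 53.8, 33.5, 13.6 and 15.6 in DDC28, and with cyclosporin 15.6, 10.2, 5.47 and 6.70 in VEHICLE, 4.05, 11.3, 37.6 and 10.7 in CsA7 and 1.29, 7.51, 7.61 and 5.58 in CsA28. It rose by 2.44 ± 0.57 in BDL7 (adjusted p = 0.00098) and 3.64 ± 0.57 in DDC7 (adjusted p = 5.18e-06). All DDC28 libraries of Cdk1 lay above CTLD, without a call (1.21 ± 0.57, adjusted p = 0.0736). Ccnb1 was 39.3, 58.0, 38.9 and 42.0 in BDL7 and 13.8, 0.919, 3.71 and 2.14 in BDL28, against 0 to 4.74 in SHAM. With DDC, Ccnb1 was 57.4, 139, 62.8 and 135 in DDC7 and 20.8, 16.4, 1.81 and 6.43 in DDC28, against 0 to 6.48 in CTLD. Cyclin B1, the partner of CDK1 at mitotic entry, had the largest fitted log2(value + 1) difference of the 44 tested members in both day 7 comparisons, a scale that understates the change of low genes (4.04 ± 0.78, adjusted p = 9.85e-05, and 5.28 ± 0.78, adjusted p = 1.56e-06), and was called in DDC28 (1.99 ± 0.78, adjusted p = 0.0315). Ccnb2 was 24.2, 43.7, 19.9 and 19.1 in BDL7 and 12.8, 0, 0.929 and 4.29 in BDL28, against 1.05 to 4.13 in SHAM. With DDC, Ccnb2 was 23.96, 58.3, 28.9 and 52.4 in DDC7 and 20.1, 7.12, 1.81 and 4.59 in DDC28, against 0 to 5.46 in CTLD. Cyclin B2 rose by 3.14 in BDL7, 4.16 in DDC7 and 1.71 in DDC28 (adjusted p = 0.044). Ccna2 was 47.6, 58.0, 33.9 and 38.9 in BDL7 and 17.7, 1.84, 2.79 and 3.22 in BDL28, against 2.10 to 6.21 in SHAM. With DDC, Ccna2 was 42.1, 85.5, 54.8 and 82.2 in DDC7 and 25.8, 11.4, 2.71 and 1.84 in DDC28, against 1.01 to 6.55 in CTLD. Cyclin A2, which acts from S phase to prophase, rose by 3.25 and 4.38 at day 7.

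Foxm1, the forkhead factor of mitotic genes, rested on few reads in the controls (2 in SHAM and 3 in CTLD over 4 libraries). Foxm1 was 13.4, 17.3, 13.0 and 4.58 in BDL7 and 10.8, 2.76, 0 and 1.07 in BDL28, against 0 to 2.10 in SHAM. With DDC, Foxm1 was 13.1, 22.4, 9.97 and 19.8 in DDC7 and 4.30, 4.98, 0.904 and 0 in DDC28, against 0 to 1.62 in CTLD. Against so few reads the ratio with its exact 95% interval for counting error was 19.2 (5.07 to 163) in BDL7 and 18.2 (6.03 to 90.3) in DDC7, and both rises were called (adjusted p = 0.0002 and 0.000185). Aurkb, the kinase of the chromosomal passenger complex, had 2 reads in SHAM. Aurkb was 18.4, 24.4, 17.9 and 12.2 in BDL7 and 9.84, 0, 0.929 and 4.29 in BDL28, against 0 to 1.24 in SHAM. With DDC, Aurkb was 16.7, 30.4, 19.9 and 34.0 in DDC7 and 18.6, 4.27, 0.904 and 1.84 in DDC28, against 1.09 to 3.24 in CTLD. Its BDL7 ratio was 29.6 (7.93 to 249) (adjusted p = 5.7e-05), and its DDC7 difference was 3.07 ± 0.69 (adjusted p = 0.000423). Bub1, the kinetochore checkpoint kinase, was too low to be tested, with 28 reads in BDL7 against 3 in SHAM and 45 in DDC7 against 2 in CTLD. Bub1 was 5.01, 11.2, 3.99 and 5.34 in BDL7 and 2.95, 0, 0.929 and 0 in BDL28, against 0 to 1.38 in SHAM. With DDC, Bub1 was 10.2, 10.4, 4.98 and 9.21 in DDC7 and 3.58, 1.42, 0.904 and 0 in DDC28, against 0 to 2.03 in CTLD. All DDC7 and BDL7 libraries of Bub1 lay above their controls.

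The passenger complex also holds survivin (Birc5) and borealin (Cdca8). Birc5 was 15.1, 7.45, 14.7 and 7.12 in SHAM, 97.8, 155, 98.7 and 93.1 in BDL7 and 59.0, 15.6, 22.3 and 12.9 in BDL28. With DDC, Birc5 was 11.2, 16.2, 14.4 and 9.82 in CTLD, 91.5, 171, 127 and 212 in DDC7 and 54.5, 33.5, 16.3 and 20.2 in DDC28, and with cyclosporin 9.57, 9.25, 7.66 and 6.70 in VEHICLE, 12.1, 10.3, 50.6 and 13.7 in CsA7 and 9.06, 4.29, 4.76 and 15.6 in CsA28. Birc5 rose in BDL7 (3.25 ± 0.44, adjusted p = 5.22e-07), BDL28 (1.05 ± 0.44, adjusted p = 0.0487), DDC7 (3.40 ± 0.44, adjusted p = 1.75e-07) and DDC28 (1.08 ± 0.44, adjusted p = 0.0381). Its BDL28 difference was 0.61 (adjusted p = 0.253) without replicate 1. Cdca8 was 41.8, 42.7, 20.9 and 42.7 in BDL7 and 14.8, 0.919, 5.57 and 1.07 in BDL28, against 2.37 to 9.63 in SHAM. With DDC, Cdca8 was 34.8, 62.3, 27.9 and 70.8 in DDC7 and 21.5, 12.1, 6.33 and 8.27 in DDC28, against 3.91 to 8.09 in CTLD. Cdca8 rose by 2.42 and 2.91 at day 7, and without BDL28 replicate 1 it was lower than in SHAM at day 28 (-1.21, adjusted p = 0.0422).

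Polo-like kinase 1, which acts at mitotic entry and on spindle poles, was 6.88, 4.96, 15.8 and 2.37 in SHAM, 84.4, 123, 89.7 and 85.5 in BDL7 and 45.3, 0.919, 6.50 and 7.503 in BDL28. With DDC, Plk1 was 3.04, 13.0, 2.61 and 7.64 in CTLD, 104, 172, 105 and 205 in DDC7 and 50.9, 23.5, 8.14 and 5.51 in DDC28, and with cyclosporin 4.79, 1.85, 1.09 and 2.68 in VEHICLE, 2.02, 5.64, 27.6 and 4.57 in CsA7 and 1.29, 10.7, 1.90 and 14.5 in CsA28. Plk1 rose by 3.73 ± 0.78 in BDL7 (adjusted p = 0.000348) and 4.44 ± 0.78 in DDC7 (adjusted p = 3.32e-05). Aurka was 23.4, 28.5, 16.95 and 21.4 in BDL7 and 11.8, 1.84, 5.57 and 3.22 in BDL28, against 1.24 to 10.5 in SHAM. With DDC, Aurka was 23.2, 59.1, 31.9 and 60.9 in DDC7 and 10.8, 8.55, 0.904 and 3.67 in DDC28, against 0 to 3.91 in CTLD. Aurora A, the centrosome kinase, rose by 2.35 and 3.86. Bub1b was 21.7, 16.3, 3.99 and 10.7 in BDL7 and 3.94, 2.76, 0.929 and 1.07 in BDL28, against 1.05 to 4.13 in SHAM. With DDC, Bub1b was 7.26, 19.2, 22.9 and 14.9 in DDC7 and 7.17, 4.98, 1.81 and 2.76 in DDC28, against 0 to 1.305 in CTLD. BubR1 (Bub1b), of the spindle checkpoint, rose by 1.77 in BDL7, where replicate 3 overlapped SHAM. CTLD held 3 Bub1b reads, and the ratio to it was 16.9 (5.59 to 83.9) in DDC7 and 4.83 (1.45 to 25.2) in DDC28 (adjusted p = 2.14e-05 and 0.0322).

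The anaphase-promoting complex marks mitotic proteins for destruction, with Cdc20 as its activator, Ube2c as its ubiquitin-conjugating enzyme and Cdca3 as a trigger of mitotic entry. Cdc20 was 23.4, 45.8, 28.9 and 24.4 in BDL7 and 12.8, 0, 0.929 and 0 in BDL28, against 0 to 6.88 in SHAM. With DDC, Cdc20 was 33.4, 95.1, 37.9 and 69.4 in DDC7 and 16.5, 7.83, 0 and 0.919 in DDC28, against 1.305 to 9.71 in CTLD. Ube2c was 15.0, 28.5, 30.9 and 16.8 in BDL7 and 7.87, 2.76, 1.86 and 1.07 in BDL28, against 2.10 to 3.56 in SHAM. With DDC, Ube2c was 35.6, 59.1, 36.9 and 51.7 in DDC7 and 16.5, 2.85, 1.81 and 1.84 in DDC28, against 1.01 to 6.52 in CTLD. For both genes every day 7 library lay above its control. Cdca3 was 30.1, 69.2, 20.9 and 25.2 in BDL7 and 17.7, 0, 3.71 and 4.29 in BDL28, against 1.24 to 4.13 in SHAM. With DDC, Cdca3 was 40.7, 96.7, 47.8 and 65.2 in DDC7 and 20.8, 9.26, 4.52 and 2.76 in DDC28, against 0 to 4.36 in CTLD. The 3 genes rose in BDL7 (3.46, 2.63 and 3.12) and DDC7 (3.59, 3.60 and 4.33), and 0 of the 3 were called at day 28 of either model.

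Centromere genes rose too. Cenpa, the histone H3 variant of centromeres, was 17.9, 27.3, 31.6 and 21.3 in SHAM, 38.4, 80.4, 44.9 and 58.8 in BDL7 and 45.3, 10.1, 11.1 and 16.1 in BDL28. With DDC, Cenpa was 16.2, 17.8, 19.6 and 12.002 in CTLD, 58.1, 105, 79.7 and 92.8 in DDC7 and 29.4, 31.3, 23.5 and 26.6 in DDC28, and with cyclosporin 22.7, 17.6, 12.04 and 20.1 in VEHICLE, 27.3, 31.03, 39.9 and 22.9 in CsA7 and 19.4, 21.5, 22.8 and 21.2 in CsA28. Its rise was 1.12 ± 0.29 in BDL7 (adjusted p = 0.00239), 2.28 ± 0.29 in DDC7 (adjusted p = 9.46e-08) and 0.74 ± 0.29 in DDC28 (adjusted p = 0.0344). The BDL7 and DDC7 effects on Cenpa differed by -1.15 ± 0.42 (adjusted p = 0.079). In BDL28 replicate 1 lay above SHAM and replicates 2 to 4 below it. Cenpf, of the outer kinetochore, was 13.8, 3.72, 4.21 and 9.49 in SHAM, 39.3, 70.2, 51.8 and 54.2 in BDL7 and 46.2, 3.68, 4.64 and 5.36 in BDL28. With DDC, Cenpf was 4.05, 3.24, 7.83 and 4.36 in CTLD, 69.7, 133, 71.8 and 166 in DDC7 and 39.4, 21.4, 3.62 and 6.43 in DDC28, and with cyclosporin 11.96, 3.70, 3.28 and 8.05 in VEHICLE, 4.05, 2.82, 34.5 and 9.90 in CsA7 and 5.18, 3.22, 4.76 and 6.69 in CsA28. It rose by 2.78 ± 0.66 in BDL7 (adjusted p = 0.0012) and 4.20 ± 0.66 in DDC7 (adjusted p = 5.79e-06). Cenpe was 25.9, 40.7, 27.9 and 45.8 in BDL7 and 21.6, 0.919, 3.71 and 1.07 in BDL28, against 1.19 to 5.50 in SHAM. With DDC, Cenpe was 38.5, 63.9, 47.8 and 82.2 in DDC7 and 22.9, 7.12, 7.23 and 11.02 in DDC28, against 1.09 to 8.09 in CTLD. The kinetochore motor Cenpe rose by 3.37 and 3.65.

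Among the spindle genes Stmn1, a destabiliser of microtubules that non-dividing cells also express, was 38.5, 43.4, 35.8 and 45.1 in SHAM, 166, 299, 182 and 192 in BDL7 and 147, 31.2, 32.5 and 25.7 in BDL28. With DDC, Stmn1 was 32.4, 34.0, 50.9 and 42.6 in CTLD, 182, 284, 231 and 372 in DDC7 and 123, 104, 34.4 and 45.01 in DDC28, and with cyclosporin 62.2, 31.5, 28.5 and 37.5 in VEHICLE, 23.3, 27.3, 112 and 43.4 in CsA7 and 25.9, 29.0, 23.8 and 40.2 in CsA28. Stmn1 rose by 2.31 ± 0.46 in BDL7 (adjusted p = 0.000178) and 2.68 ± 0.46 in DDC7 (adjusted p = 2.09e-05). Kif11 was 23.4, 19.3, 18.9 and 11.4 in BDL7 and 10.8, 1.84, 3.71 and 4.29 in BDL28, against 1.24 to 4.13 in SHAM. With DDC, Kif11 was 17.4, 34.4, 17.9 and 36.1 in DDC7 and 12.2, 5.70, 2.71 and 3.67 in DDC28, against 2.18 to 4.05 in CTLD. Tpx2 was 33.4, 38.7, 16.0 and 22.9 in BDL7 and 12.8, 0, 1.86 and 5.36 in BDL28, against 0 to 6.31 in SHAM. With DDC, Tpx2 was 24.7, 67.9, 40.9 and 55.9 in DDC7 and 21.5, 7.12, 0.904 and 3.67 in DDC28, against 0 to 4.86 in CTLD. The spindle motor Kif11 and the Aurora A activator Tpx2 rose by 2.39 and 2.82 in BDL7, and by 2.72 and 4.26 in DDC7. Nusap1 was 23.4, 25.4, 18.9 and 28.2 in BDL7 and 23.6, 1.84, 1.86 and 3.22 in BDL28, against 1.19 to 4.96 in SHAM. With DDC, Nusap1 was 48.6, 61.5, 27.9 and 46.7 in DDC7 and 13.6, 11.4, 5.43 and 5.51 in DDC28, against 0 to 6.52 in CTLD. Nusap1, a microtubule bundler, rose by 2.88 in BDL7, 4.11 in DDC7 and 1.82 in DDC28 (adjusted p = 0.0086). Hmmr was 25.1, 49.8, 27.9 and 27.5 in BDL7 and 12.8, 0.919, 0 and 2.14 in BDL28, against 1.19 to 4.13 in SHAM. With DDC, Hmmr was 42.1, 65.5, 43.8 and 92.1 in DDC7 and 12.9, 7.83, 0.904 and 0 in DDC28, against 0 to 6.08 in CTLD. Hmmr, a hyaluronan-binding protein of the spindle, rose by 3.28 and 4.20. Its log2 differences at day 28 were -0.14 and 0.29, with replicate 1 of BDL28 above SHAM and replicates 1 and 2 of DDC28 above CTLD.

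Cytokinesis closes the cycle. Anln was 19.2, 36.6, 20.9 and 38.2 in BDL7 and 15.7, 11.9, 4.64 and 15.0 in BDL28, against 0 to 6.31 in SHAM. With DDC, Anln was 16.7, 48.7, 29.9 and 43.9 in DDC7 and 13.6, 4.98, 8.14 and 12.9 in DDC28, against 1.09 to 5.07 in CTLD. Anillin, the scaffold of the contractile ring, rose in BDL7 (3.52 ± 0.50, adjusted p = 7.96e-07), BDL28 (2.25 ± 0.50, adjusted p = 0.00036), DDC7 (3.33 ± 0.50, adjusted p = 1.49e-06) and DDC28 (1.63 ± 0.50, adjusted p = 0.00642). In BDL28, replicates 1, 2 and 4 of Anln lay above SHAM and replicate 3 within it, and the difference without replicate 1 was 2.09 (adjusted p = 0.00187). Prc1 was 34.3, 53.9, 26.9 and 26.7 in BDL7 and 20.7, 2.76, 3.71 and 4.29 in BDL28, against 1.38 to 3.72 in SHAM. With DDC, Prc1 was 50.8, 88.7, 56.8 and 110.5 in DDC7 and 29.4, 9.26, 0.904 and 3.67 in DDC28, against 0 to 3.24 in CTLD. Prc1, which bundles the spindle midzone, rose by 3.30 and 4.87. Kif20a was 26.7, 53.9, 26.9 and 30.5 in BDL7 and 11.8, 2.76, 1.86 and 0 in BDL28, against 3.72 to 5.93 in SHAM. With DDC, Kif20a was 41.4, 73.5, 54.8 and 66.6 in DDC7 and 21.5, 7.12, 0.904 and 9.19 in DDC28, against 4.86 to 7.64 in CTLD. Kif23 was 38.4, 43.7, 28.9 and 41.2 in BDL7 and 11.8, 1.84, 1.86 and 5.36 in BDL28, against 1.24 to 9.63 in SHAM. With DDC, Kif23 was 16.7, 33.6, 20.9 and 40.4 in DDC7 and 12.2, 11.4, 3.62 and 10.1 in DDC28, against 2.61 to 5.07 in CTLD. The midzone motors Kif20a and Kif23 rose by 2.56 and 2.71 in BDL7, and by 3.15 and 2.50 in DDC7. Racgap1 was 28.4, 36.6, 22.9 and 18.3 in BDL7 and 13.8, 0, 0.929 and 2.14 in BDL28, against 1.19 to 2.75 in SHAM. With DDC, Racgap1 was 21.8, 48.7, 25.9 and 48.2 in DDC7 and 14.3, 9.26, 1.81 and 2.76 in DDC28, against 0 to 5.46 in CTLD. Racgap1, the partner of Kif23 in centralspindlin, rose by 3.28 and 3.42.

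**Figure D4:**
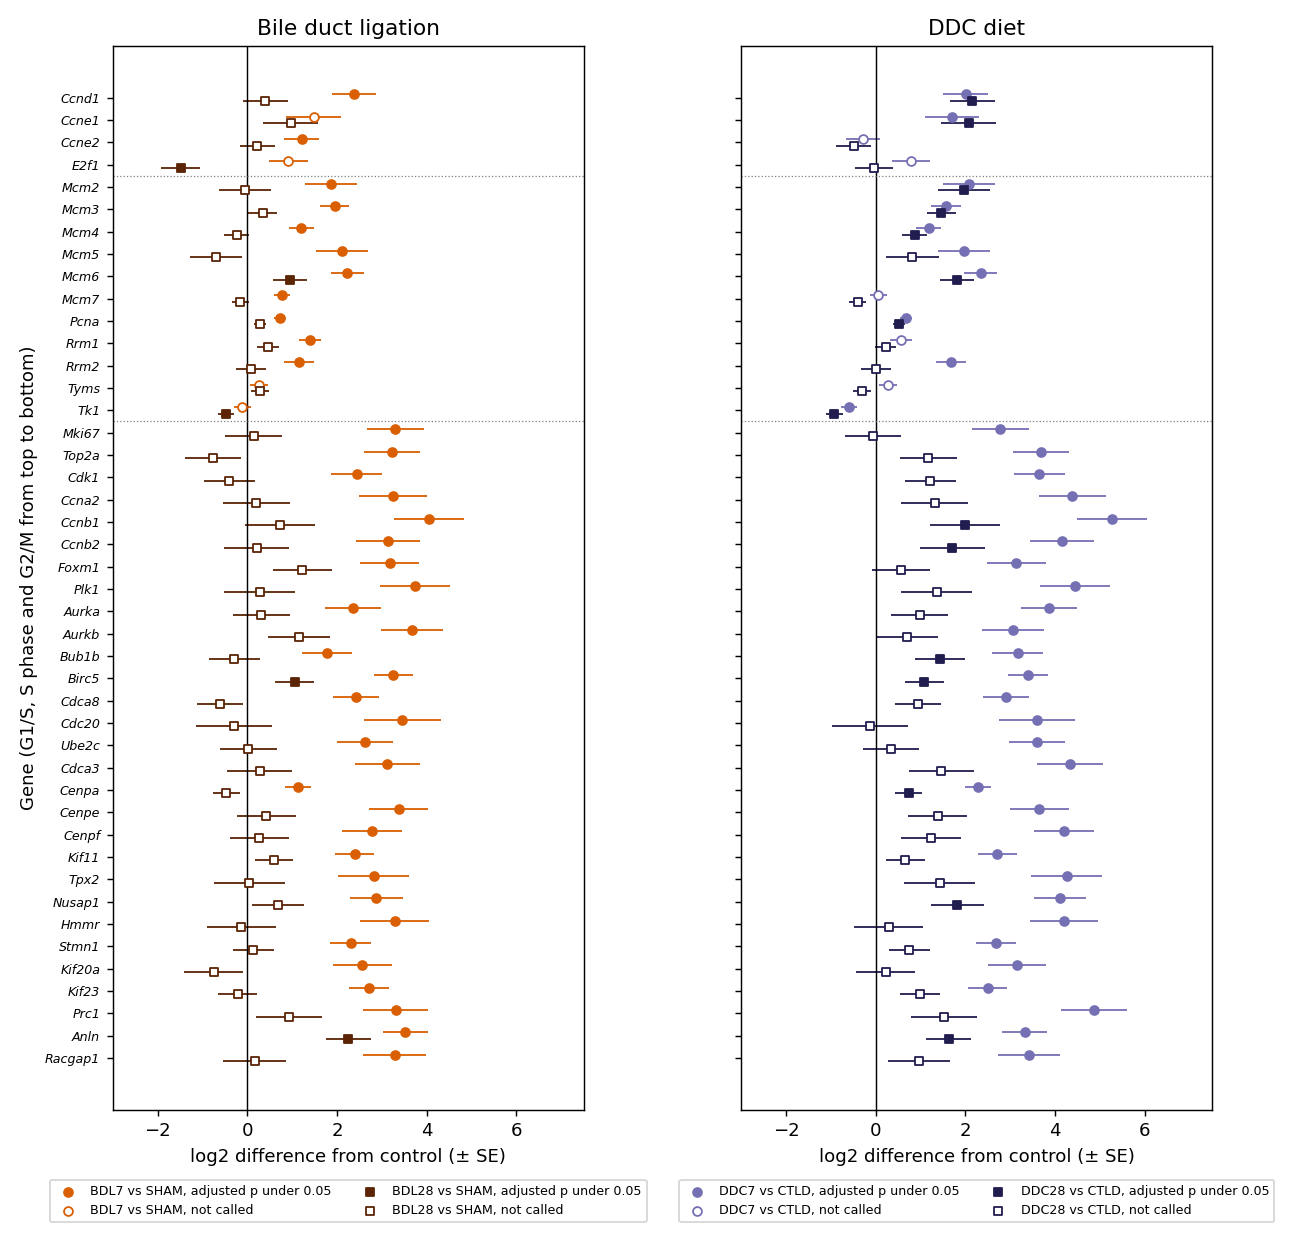
log2 differences from control with standard errors (x axes) for the 44 tested genes (rows), for ligation (left) and DDC (right), with circles for day 7 and squares for day 28, filled where the adjusted p is under 0.05. Filled circles run down all G2/M rows in both panels, while of the day 28 squares 5 are filled for ligation and 15 for DDC.

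Day 28 was compared with day 7 directly, without the controls. After ligation 40 of 44 members were lower at day 28 and 0 higher, against 16.7% and 14% of all genes, with a median of -2.29 against -0.02. Those lower were 3 of 4 G1/S, 9 of 11 S phase and 28 of 29 G2/M genes. Top2a (-3.99 ± 0.63, adjusted p = 2.34e-05) and Kif23 (-2.93 ± 0.44, adjusted p = 5.81e-06) were among them, and Anln missed the threshold (-1.27 ± 0.50, adjusted p = 0.0522). Without BDL28 replicate 1 the count was 41 and the median -2.92. With DDC 29 members were lower and 0 higher, against 3.63% and 2.07% of all genes, with a median of -2.16 against 0.01. These were 28 of the 29 G2/M genes and Rrm2 (-1.68 ± 0.33, adjusted p = 0.00143), with 0 of 4 G1/S genes. Ccnd1 (0.15 ± 0.50), Mcm3 (-0.11 ± 0.33) and Pcna (-0.14 ± 0.14) were among those not called, and Bub1b was the G2/M gene that missed (-1.73 ± 0.57, adjusted p = 0.0622). The DDC count was 11 without DDC28 replicate 3, 15 without DDC28 replicate 4 and 18 without DDC7 replicate 2, and all 29 G2/M genes were below 0 in each of these.

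Whether ligation and DDC differed was tested on the difference of their effects. At day 7, 0 of 44 members were called (background 3.78% higher and 4.68% lower), with 3 higher for ligation and 1 lower at an unadjusted p under 0.05 (10.7% and 12.5% of all genes), and edgeR and DESeq2 each called 0. At day 28, 0 were called (background 4.69% and 5.59%), with 1 higher and 9 lower for ligation at an unadjusted p under 0.05 (11.8% and 14.4% of all genes), and edgeR and DESeq2 again called 0. The day 28 count depended on BDL28 replicate 1: without it 10 genes had a lower effect under ligation than under DDC. They were Ccnd1 (-2.41, adjusted p = 0.0062), E2f1 (-1.96), Mcm2 (-2.52), Mcm3 (-1.37), Mcm4 (-1.46), Mcm5 (-2.18), Top2a (-2.81), Cdk1 (-2.30), Cdca8 (-2.15) and Cenpa (-1.65). The difference of the 2 day changes, a comparison added after the values had been seen, called 0 in limma (background 0.603% higher and 0.873% lower, with 1 higher and 6 lower at an unadjusted p under 0.05, where 8.6% and 10.3% of all genes were) and 1 lower in edgeR and in DESeq2. Without BDL28 replicate 1 it called 7 lower (Ccnd1, E2f1, Mcm3, Mcm4, Mcm5, Top2a and Kif23). The shares of all genes above are those of fits to all 36 libraries, and none is given for these refits. Leaving out the library that was highest for 40 of the 45 genes lowers most of their BDL28 means. These refits show how far the counts rest on that library and are no test.

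The spread within BDL28 was seen gene by gene. The 4 BDL28 libraries overlapped SHAM for 45 of 45 members, although 3 were called higher and 2 lower. Of all genes tested, 18.7% had every BDL28 library above SHAM and 18.6% every library below. All 30 G2/M genes were highest in replicate 1, for example Plk1 at 45.3 against 0.919 to 7.503 in the others. Some genes did not follow it: Pcna was 139.7, 146, 156 and 151, Mcm7 47.2, 48.7, 52.0 and 43.9 and Tyms 31.5, 26.6, 25.1 and 30.01. Ccnd1 was high in replicates 1 and 4. Without replicate 1 the median difference of the 29 G2/M genes from SHAM was -0.46, with 22 below 0, against 0.20 with it. Then 1 member was called higher (Anln) and 5 lower (E2f1, Mcm5, Top2a, Cdca8 and Cenpa, with Mcm5 at -1.36 and Cenpa at -0.92). No share of all genes is given for this refit, which leaves out replicate 1, the highest library of most members. The cholangiocyte, stellate and macrophage marker sums given above were highest in the same library. So were those of neutrophils (461 against 189 to 248), sinusoidal endothelium (694 against 420 to 577) and Kupffer cells (1590 against 995 to 1413). The T and NK cell and the B and plasma cell sums were also highest there, while the hepatocyte and red cell precursor sums were not. The part of these cell types in this was not tested.

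In CsA7 no member was called, although 11 of 44 were higher at an unadjusted p under 0.05 and 0 lower (8.65% and 9.27% of all genes), with a median of 0.71 against 0.00 over all genes. DESeq2 called 1 and edgeR 0. Of the 45 genes, 5 had all CsA7 libraries above VEHICLE (Ccnd1, Mcm3, Birc5, Cenpa and Cenpe) and 0 had all below, where 5.01% of all genes tested lay above and 5.26% below. Mcm3 was 30.4, 22.6, 37.6 and 21.3 in CsA7 against 8.05 to 18.6 in VEHICLE (1.04 ± 0.33, adjusted p = 0.0639), and Cenpe 3.04, 4.70, 27.6 and 3.81 against 0 to 2.39 (1.89 ± 0.66, adjusted p = 0.104). Replicate 3 of CsA7 was far above the others for many of them: Hmmr was 1.01, 4.70, 26.8 and 4.57, Kif20a 4.05, 2.82, 28.4 and 2.29 and Ccnb1 1.01, 2.82, 26.1 and 1.52. Without it the median of the members was 0.19. VEHICLE replicate 1 was high as well, and VEHICLE held neutrophil markers summing to 297 and 113 in replicates 1 and 2 against 5.47 and 4.02 in the others, whose part was not tested. Without VEHICLE replicate 1, Pcna (0.62) and Rrm2 (1.31) were called higher in CsA7, while Mcm3 (1.22) was called without VEHICLE replicate 3. In CsA28, 0 members reached an unadjusted p under 0.05 (4.37% of all genes higher and 4.95% lower), DESeq2 and edgeR called 0, and the median was 0.07.

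**Figure D5:**
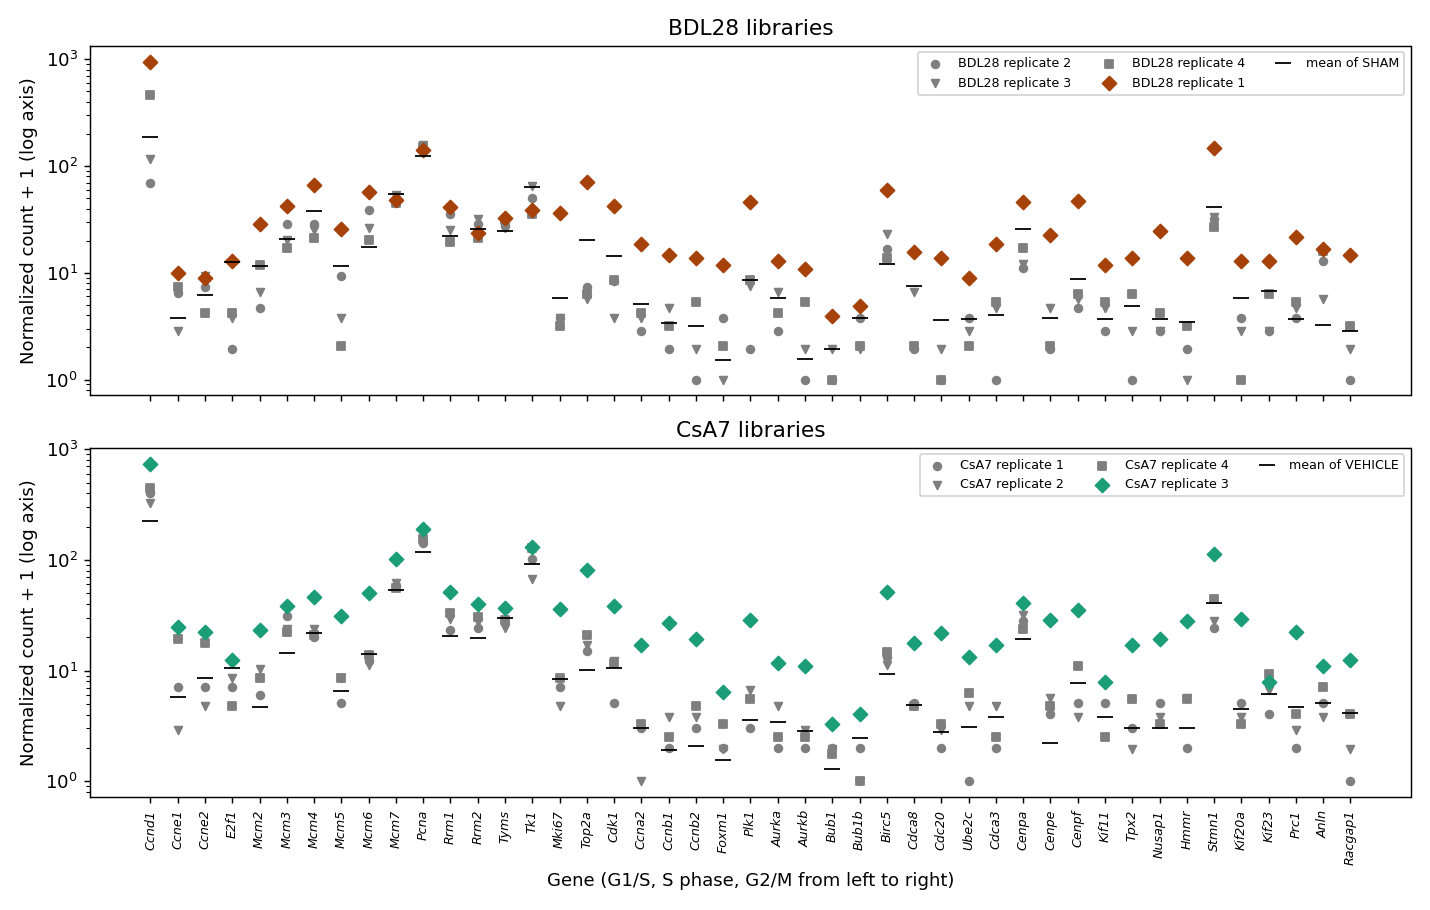
Normalized counts + 1 (y axes, logarithmic) of the 45 genes (x axis) in the 4 libraries of BDL28 (top) and CsA7 (bottom), with the mean of the control as a dash. BDL28 replicate 1 and CsA7 replicate 3 (diamonds) top most G2/M genes, while Pcna, Tyms and Mcm7 in BDL28 lie close together.

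Other cell cycle genes, 111 of them from lists on the same pathway, 89 of which were tested, were called in both directions. In BDL7 54 were higher and 7 lower, in BDL28 16 and 12, in DDC7 58 and 6, in DDC28 28 and 9, in CsA7 4 and 1 and in CsA28 0 and 0. These counts are to be read against the shares of all genes given above, 20.2% higher in BDL7, 24.1% in BDL28, 24.7% in DDC7 and 27.9% in DDC28, and 18.5%, 22.7%, 22.1% and 24.7% lower. At day 28 the counts were near or below those shares. Of the CDK inhibitors (5 tested, too few to set against these shares), which hold cells in G1, 1 was higher in BDL7, 4 in BDL28, 2 in DDC7 and 2 in DDC28, and 1 was lower in CsA7. Cdkn2c (p18) was higher in all 4 injured groups (0.80, 1.21, 1.36 and 1.44). The other 3 higher in BDL28 were Cdkn1a (p21, 2.07), Cdkn1b (p27, 0.37) and Cdkn1c (p57, 2.69), and Cdkn1a was the inhibitor lower in CsA7 (-2.77, adjusted p = 0.00733), names chosen after their values were seen. Cdkn1c was also the other inhibitor higher in DDC28. Of the other D cyclins and G1 kinases (5 tested), 1 was higher in BDL7, BDL28, DDC7 and DDC28, and 2 were lower in BDL28 and 1 in DDC28. Cdk6 was the kinase that rose (0.67, 0.63, 0.95 and 0.98).

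In the RB and E2F families (11 tested) 3 were higher and 2 lower in BDL7, 1 and 1 in BDL28, 3 and 1 in DDC7 and 2 and 2 in DDC28. This list, the D cyclins and G1 kinases, and the MuvB and MYBL2 genes were too few to set against the shares of all genes. Rbl1 (p107) rose by 1.91 and E2f3 by 0.71 in BDL7, and Rbl2 (p130), of the DREAM complex of resting cells, fell by 0.63. Of the MuvB and MYBL2 genes (4 tested) 0 were higher and 2 lower in BDL7, Rbbp4 (-0.65) and Lin52 (-0.57). Of 18 origin and fork genes 9 were higher and 1 lower in BDL7, and 10 and 2 in DDC28. Lig1, Chaf1a and Uhrf1 rose by 2.45, 3.05 and 3.95 in BDL7, and by 1.86, 1.83 and 1.90 in DDC28. Mitotic entry control (10 tested) had 8 higher and 1 lower in BDL7, with Pkmyt1 (2.68) and Mastl (3.16) up and Ccnf down (-1.40). Kinetochore and cohesion genes (16 tested) had 13 higher and 1 lower in BDL7 and 14 and 1 in DDC7, with Sgo2a (3.83), Incenp (2.57) and Nuf2 (3.27) in BDL7. Of 8 condensin and histone chaperone genes 7 rose in BDL7 and 8 in DDC7, with Smc4 (1.05), Hmgb2 (1.54) and Ncapg (3.05) in BDL7. The other spindle and cytokinesis genes (12 tested) had 12 higher in BDL7 and 11 in DDC7, among them Ckap2 (3.43), Tacc3 (2.41) and Kif15 (2.704) in BDL7.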

How the data were processed

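Liver RNA of 36 mouse libraries in 9 groups of 4 was counted at 3′ ends. Per the submitters' processing notes, the authors used the GRCm39 build, RSEM 1.3.1 and STAR 2.7.9a, with UMI-tools 1.1.1, Trim Galore and DESeq2. No source used here gives the annotation release, the order of steps or the use of strand, so reads of overlapping genes or near-identical copies cannot be told apart. The deposited values are a normalized signal, gene counts divided by 1 factor per library, and 100.0% of them were whole reads within 0.001 read. The depth of 2081093 to 3770267 reads (median 2826073.0) limits low genes. Symbols came from a reference gene table (29121 of 29546 identifiers matched).

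Differences were fitted with limma 3.58.1 in R 4.3.3 on log2(value + 1), 1 coefficient per group, with a trended and robust variance and Benjamini-Hochberg adjustment over 12596 genes within each comparison. On the recovered reads edgeR 4.0.16 called 2445 genes higher in BDL7 and DESeq2 1.42.0 called 2447, against 2549 in limma. The fitting was tested on simulated data. Counting intervals are exact 95% intervals and cover counting error only. Promoters were RefSeq windows of GRCm38.p6. The members and lists were chosen with earlier results of these data known.

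The rule for named genes gave every library for the 4 G1/S genes, the 3 S phase and 8 G2/M genes with the highest mean, and each member called in any effect other than BDL7. It covered nearly all members, so that the rest are given by library in the ligation and DDC groups, with control ranges, and by library in the heat map. Up to 3 genes per other list were named, by lowest adjusted p in BDL7. Other scalings, filters, pseudocounts, tests, controls, blocks and left-out libraries were tried.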

Additional observations from a re-analysis of the deposited data

Results flagged for a closer look

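Libraries far from the other 3 of their group were found by the gap to the nearest library over the range of the group. They were flagged above Dixon's 95% critical value for 4 libraries. Chance passes it in about 1 in 20 groups of normally distributed values, but these were counts without a log. Of 27 phase sums 5 passed it, and of 286 member levels with at least 10 reads in the highest library 48 did. Many of the 48 fall in the same few libraries, where members are high together, so they are not independent. The share over all genes was not computed, and the counts are no test against that rate. The G2/M sums that stood apart were those of BDL7 replicate 2 (1989, nearest 1328), BDL28 replicate 1 (781, nearest 151), VEHICLE replicate 1 (242, nearest 133), CsA7 replicate 3 (749, nearest 199) and CsA28 replicate 4 (209, nearest 133).

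CsA7 replicate 3 stood apart as the highest library for 19 members, with normalized counts of Mcm4 at 45.2 (nearest 22.6), Mcm5 at 29.9 (nearest 7.62), Mcm6 at 49.1 (nearest 12.9), Mcm7 at 100.4 (nearest 61.1), Mki67 at 35.3 (nearest 7.62), Top2a at 79.7 (nearest 19.8), Ccna2 at 16.1 (nearest 2.29), Ccnb1 at 26.1 (nearest 2.82), Ccnb2 at 18.4 (nearest 3.81), Plk1 at 27.6 (nearest 5.64), Aurkb at 9.96 (nearest 1.88), Birc5 at 50.6 (nearest 13.7), Cdca8 at 16.9 (nearest 4.05), Cdc20 at 20.7 (nearest 2.29), Cenpe at 27.6 (nearest 4.70), Nusap1 at 18.4 (nearest 4.05), Hmmr at 26.8 (nearest 4.70), Kif20a at 28.4 (nearest 4.05) and Prc1 at 21.5 (nearest 3.05).

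BDL28 replicate 1 stood apart as the highest for 15 members, with normalized counts of Mcm4 at 64.9 (nearest 27.6), Mki67 at 35.4 (nearest 2.79), Top2a at 69.9 (nearest 6.43), Cdk1 at 41.3 (nearest 7.503), Ccna2 at 17.7 (nearest 3.22), Plk1 at 45.3 (nearest 7.503), Cdc20 at 12.8 (nearest 0.929), Cenpa at 45.3 (nearest 16.1), Cenpe at 21.6 (nearest 3.71), Cenpf at 46.2 (nearest 5.36), Nusap1 at 23.6 (nearest 3.22), Hmmr at 12.8 (nearest 2.14), Stmn1 at 147 (nearest 32.5), Prc1 at 20.7 (nearest 4.29) and Racgap1 at 13.8 (nearest 2.14).

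BDL7 replicate 2 was apart as the highest for 7 members, with Top2a at 228 (nearest 176), Cdk1 at 111 (nearest 64.8), Ccnb1 at 58.0 (nearest 42.0), Plk1 at 123 (nearest 89.7), Birc5 at 155 (nearest 98.7), Hmmr at 49.8 (nearest 27.9) and Kif20a at 53.9 (nearest 30.5). DDC28 replicate 1 was apart for Ccne1 at 7.89 (nearest 9.04) and Ube2c at 16.5 (nearest 2.85), low for Ccne1 and high for Ube2c. Single members stood apart in BDL7 replicate 3 (low, Cdca8 at 20.9, nearest 41.8), CTLD replicate 2 (high, E2f1 at 22.7, nearest 10.1), CsA28 replicate 2 (high, Rrm1 at 30.1, nearest 20.0), DDC7 replicate 2 (high, Mcm4 at 60.7, nearest 50.3) and VEHICLE replicate 3 (low, E2f1 at 6.57, nearest 10.2).

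Days 7 and 28 differed by the direct limma test for 40 members after ligation, 29 with DDC and 1 (Pcna) with cyclosporin, all lower at day 28. Of all genes tested, 16.7% were lower after ligation, 3.63% with DDC and 1.07% with cyclosporin. The DDC count was 11 without DDC28 replicate 3, 15 without DDC28 replicate 4 and 18 without DDC7 replicate 2, and the cyclosporin count was 0 without CsA7 replicate 3 or 4 or CsA28 replicate 1, 2 or 3.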

How the results depend on the processing

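Of 10745 recomputed differences of single members, 10405 kept their side of the threshold, 136 gained and 204 lost a call, and 0 changed sign after a call. Leaving out 1 library gave these ranges of members called: BDL28 against SHAM 1 to 4 higher and 1 to 5 lower, DDC28 against CTLD 8 to 20 higher and 1 to 2 lower, CsA7 against VEHICLE 0 to 2 higher, DDC28 against DDC7 11 to 30 lower, CsA28 against CsA7 0 to 2 lower, the BDL7 minus DDC7 effect 0 to 1 higher and 0 to 1 lower, the BDL28 minus DDC28 effect 0 to 10 lower, and the difference of day changes 0 to 7 lower. The counts were 39 to 41 higher in BDL7, 37 to 39 higher in DDC7 and 35 to 41 lower in BDL28 against BDL7. Higher calls in BDL28 fell to 1 without SHAM replicate 2 or 4, and in DDC28 to 9 and 8 without DDC28 replicates 1 and 2.

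With total-count scaling, which moved the median of all genes by 0.31 in BDL7, 0.26 in BDL28, 0.34 in DDC7, 0.35 in DDC28 and 0.13 in CsA7, BDL28 had 6 higher and 1 lower, DDC7 0 lower, DDC28 22 higher, CsA7 3 higher and the BDL28 minus DDC28 effect 1 lower, while summed levels were 362 (S phase, CTLD), 730.02 (S phase, DDC7) and 155 (G2/M, CTLD). Quantile normalization gave DDC28 8 higher and 3 lower, CsA28 against CsA7 0 lower and the day changes 1 lower. Without the filter on low values BDL28 had 1 higher and 1 lower, and CsA28 against CsA7 0 lower. On recovered reads edgeR and DESeq2 each gave BDL28 1 lower, CsA28 against CsA7 2 lower and the day changes 1 lower, and DESeq2 gave CsA7 1 higher. Fitting only the groups compared gave BDL28 1 lower, CsA28 against CsA7 0 lower and the BDL7 minus DDC7 effect 1 higher and 2 lower. All 12 controls gave BDL7 1 lower, BDL28 5 higher, DDC7 0 lower and CsA7 3 higher. Counting motifs before the start only left a CHR in 8 of 24 G2/M windows (33.3%, against 17.4% of all windows). The cause of these changes was not tested.

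Replicate numbers did not pair the samples: residual correlations above 0.1 were found in 2 of 4 same-numbered pairs for BDL28 against BDL7 and in 0 for the other comparisons. The replicate block gave CsA7 1 higher and CsA28 against CsA7 0 lower, and left 40 higher in BDL7, 38 in DDC7 and 13 in DDC28. Title numbers as the block gave BDL28 1 lower, DDC28 2 lower, CsA7 1 higher and the BDL28 minus DDC28 effect 1 lower.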
